A study of Mus musculus with 6 samples.

Results

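The snoRNA host transcripts GAS5, SNHG1, SNHG5, SNHG6, SNHG7, SNHG8, SNHG12, SNHG15, SNHG16 and ZFAS1 were examined in A375 cells, an established human melanoma line, after CRISPR/Cas9 targeting of ABCE1 or YAE1. The 10 genes were chosen by their Ensembl identifiers, from a list of hosts whose RNA is degraded by nonsense-mediated decay, and all 10 were found among the 62492 rows of the deposited expression table. Each of them passed the filter on low values that left 12578 genes for testing. Every cell population received lentivirus with Cas9 and a guide, was selected with puromycin at 10 µg/mL and was collected 7 days after selection. The 2 control libraries (sgCon, labelled wild type) carried guides against LacZ or Luciferase, the 2 ABCE1 libraries (sgAbce1) guides against ABCE1, and the 2 YAE1 libraries (sgYAE1) guides against YAE1. Total RNA was read as 150 bp pairs from strand-specific libraries. The labels name no single-cell clone.

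Nonsense-mediated decay is a cytoplasmic surveillance pathway that destroys mRNAs on which ribosomes terminate early, and it acts only on RNAs that are being translated. Many snoRNA hosts are spliced, exported and engaged by ribosomes although they code for no conserved protein, so their exons are degraded by this pathway while the snoRNAs released from their introns are stable. The level of a host is thus distinct from that of the snoRNAs it gives rise to, which were not analysed here. GAS5, SNHG1, SNHG5, SNHG6, SNHG16 and ZFAS1 carry box C/D snoRNAs, which guide ribose methylation. SNHG7, SNHG8 and SNHG15 carry box H/ACA snoRNAs, which guide pseudouridylation, and SNHG12 carries both kinds. ABCE1 is the iron-sulfur ATPase that splits ribosomes after termination, and YAE1 acts with LTO1 as an adaptor in delivering its iron-sulfur cluster. From its title, the study concerns how this complex bears on nonsense-mediated decay and on MHC class I in tumour cells.

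The libraries held 15713011 to 18399718 fragments, as worked out from the steps in the values. The smallest fragment numbers that fit a host's values ran from 455 (SNHG15) to 13477 (GAS5) per library. True numbers can be whole multiples of these, so the counting errors of 4.69% and 0.861% they give are upper limits. Whether paired libraries of a group had their own guides or cultures is not in the labels, so the p-values reflect the scatter of these particular libraries and it could be purely technical. The organism field reads Mus musculus although the cell type is human. The genotype of ABCE1 replicate 2 reads Abce2 knockout and that of YAE1 replicate 2 reads Yae2 knockout, so groups were taken from the titles. The table names genes by identifier alone. The rows of ABCE1, YAE1 and LTO1, of the decay factors, of other decay targets, of the snoRNAs themselves and of melanoma markers were therefore not analysed here, and neither the targeting nor the cell line could be checked on them. Groups were compared by limma on the log2(FPKM + 1) scale over all tested genes, and a host is said to have risen or fallen, or to be called, where the Benjamini-Hochberg adjusted p was under 0.05. The fit pooled the spread of the 3 groups, so a host's SE was the same in each comparison. Fold changes are ratios of mean FPKM, while log2 changes, with their standard errors (SE) and 95% intervals, are from the fit. FPKM is relative to the library's total, so a change in RNA per cell cannot be told apart from a change in a host's share of it.

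In control cells the hosts spanned a 10.3-fold range of level per length. SNHG6 stood highest, at 82.4 and 83.9 FPKM, followed by GAS5 at 76.4 and 76.6 FPKM and SNHG1 at 59.9 and 55.9 FPKM. ZFAS1 (22.3 and 22.2 FPKM) and SNHG16 (18.5 and 17.1 FPKM) came next. The remaining hosts lay between 7.98 and 13.7 FPKM in both control libraries. SNHG12 and SNHG5, next to each other in this order, overlapped, whereas all other neighbours in the order were separate in these libraries. By its mean over the 6 libraries GAS5 was at or above 97.9% of the tested genes, and the lowest host, SNHG15, was at or above 58.7%. With ABCE1 guides and with YAE1 guides GAS5 took first place in FPKM from SNHG6, again without overlap. Any order between hosts rests on the gene lengths behind the FPKM values. The smallest lengths that fit were 1247 bases for SNHG6, 4842 for GAS5 and 8315 for ZFAS1. By the smallest fragment numbers that fit, GAS5 already stood above SNHG6 in control replicate 1 (6807.5 against 1891). With ABCE1 guides SNHG12 (29.4 and 28.8 FPKM) and SNHG7 (23.4 and 23.6 FPKM) stood above SNHG16 (15.9 and 16.2 FPKM), which they lay below in the controls. With YAE1 guides SNHG16, SNHG12, SNHG5, SNHG8 and SNHG7 followed one another in that order, each overlapping the next.

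**Figure D1:**
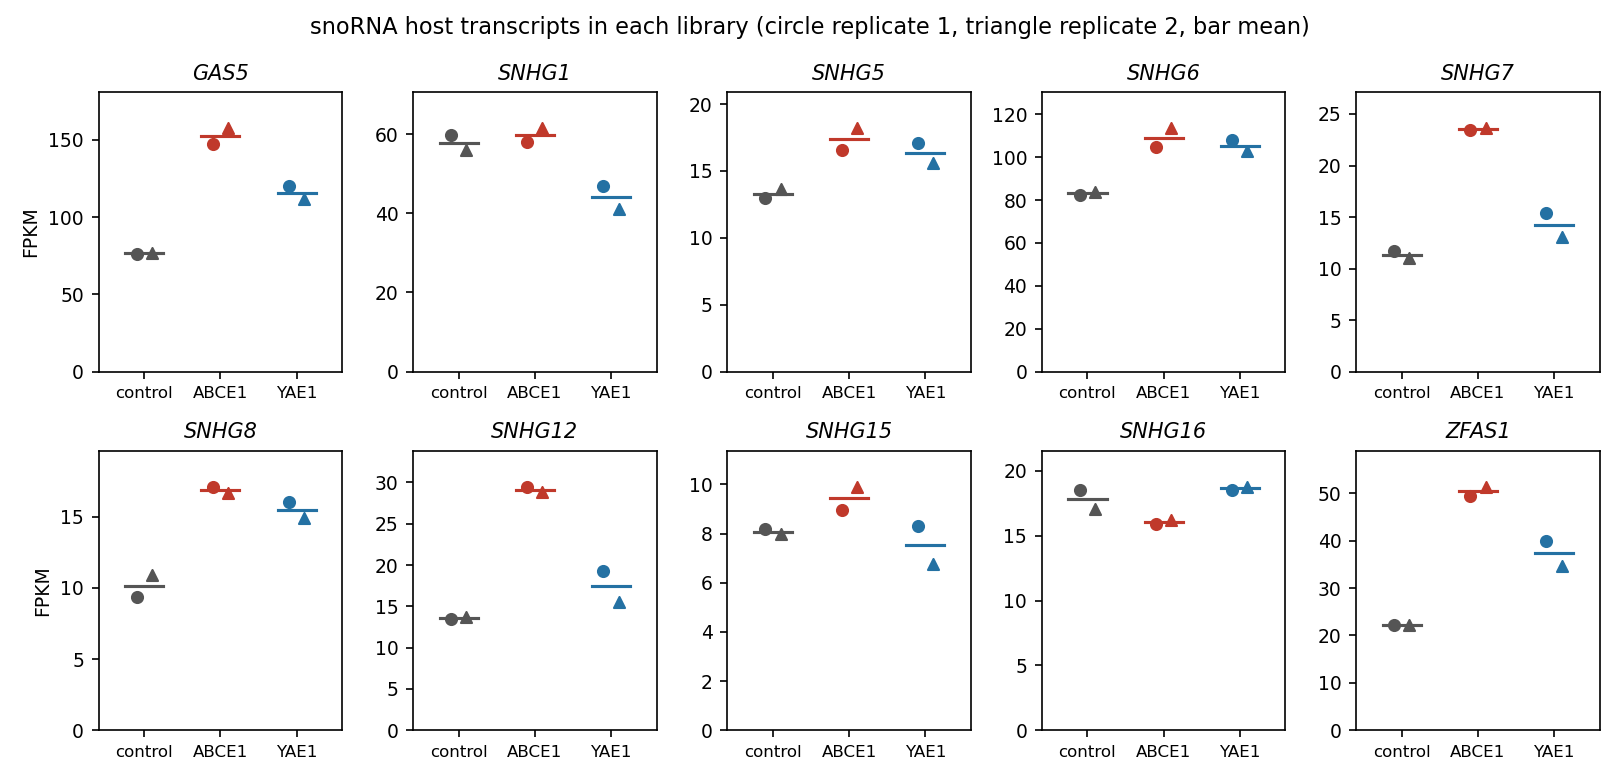
FPKM of each snoRNA host (y axis, from 0, a scale of its own per panel) in the control, ABCE1 and YAE1 groups (x axis), with a circle for replicate 1, a triangle for replicate 2 and a bar for the mean. ZFAS1, SNHG12, SNHG7 and GAS5 rose 1.99-fold to 2.26-fold with ABCE1 guides, and the means of SNHG1 and SNHG16 were 1.03 and 0.904 times the control mean.

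The first comparison asked which hosts changed with ABCE1 guides. With these guides 7 of the 10 hosts rose, namely ZFAS1, SNHG12, SNHG7, GAS5, SNHG8, SNHG6 and SNHG5, and none fell (limma, adjusted p under 0.05). Of all tested genes 37.5% were called higher and 20.4% lower. The median log2 change was 0.54 over the hosts and 0.10 over all tested genes. A rise of 1.5-fold or more in the fit was called for 5 hosts, against 13.5% of all genes. In 8 hosts both ABCE1 libraries lay above both control libraries, which was also so for 50.6% of all genes, and in 1 host they lay below, as in 30.9% of all genes.

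ZFAS1 (ENSG00000177410), the antisense neighbour of ZNFX1 and host of the SNORD12 snoRNAs, showed the largest rise among the hosts. It went from 22.3 and 22.2 FPKM in the controls to 49.5 and 51.3 FPKM with ABCE1 guides. The groups were far apart, with replicate 1 at 1.00 and 0.964 times replicate 2 in them. The mean rose 2.26-fold (log2 change 1.14 ± 0.07, limma adjusted p = 4.24e-05), and 96.9% of tested genes had a lower value of this change (rises and falls counted with their sign).

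SNHG12 (ENSG00000197989) and SNHG7 (ENSG00000233016), hosts of H/ACA snoRNAs, came next. SNHG12 read 13.5 and 13.7 FPKM in the controls and 29.4 and 28.8 FPKM with ABCE1 guides, a 2.15-fold rise (log2 change 1.05 ± 0.09, SE, limma adjusted p = 0.000157). SNHG7 read 11.7 and 11.0 FPKM in the controls and 23.4 and 23.6 FPKM with ABCE1 guides, a 2.07-fold rise (log2 change 0.99 ± 0.08, limma adjusted p = 0.000105). In neither gene did the groups overlap.

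GAS5 (ENSG00000234741), the growth arrest transcript that hosts a long series of C/D snoRNAs and is the best studied of these decay substrates, read 76.4 and 76.6 FPKM in the controls and 147 and 157 FPKM with ABCE1 guides. This was a 1.99-fold rise (log2 change 0.98 ± 0.05, SE, limma adjusted p = 2.87e-05). GAS5 made up 24.4% ± 0.161 of the summed FPKM of the 10 hosts in the controls and 31.4% ± 0.315 with ABCE1 guides (SD, n = 2 each). The sum itself went from 314 ± 1.52 to 484 ± 18.4 FPKM, or from 0.124% to 0.192% of all FPKM.

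SNHG8 (ENSG00000269893), host of SNORA24, rose less, from 9.37 and 10.9 FPKM to 17.1 and 16.7 FPKM (1.66-fold, log2 change 0.68 ± 0.08, SE, limma adjusted p = 0.000431). SNHG6 (ENSG00000245910), host of SNORD87, rose from 82.4 and 83.9 FPKM to 105 and 113 FPKM (1.31-fold, log2 change 0.39 ± 0.05, limma adjusted p = 0.000843). SNHG5 (ENSG00000203875), host of the SNORD50 snoRNAs, rose from 12.9 and 13.6 FPKM to 16.6 and 18.2 FPKM (1.31-fold, log2 change 0.36 ± 0.07, limma adjusted p = 0.00394). The groups did not overlap in any of these 3 genes, but 24.5% of tested genes had a higher log2 change than SNHG6 and 26.3% a higher one than SNHG5.

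The other hosts did not pass the test. SNHG1 (ENSG00000255717), host of SNORD25 to SNORD31, read 59.9 and 55.9 FPKM in the controls and 58.0 and 61.4 FPKM with ABCE1 guides, so that the groups overlapped. Its log2 change of 0.04 had a 95% interval from -0.13 to 0.22 (limma adjusted p = 0.619), which on this scale runs from 0.917-fold to 1.16-fold. SNHG15 (ENSG00000232956), host of SNORA9, read 8.18 and 7.98 FPKM in the controls and 8.97 and 9.90 FPKM with ABCE1 guides (log2 change 0.20, 95% interval -0.03 to 0.42, limma adjusted p = 0.113). SNHG16 (ENSG00000163597), host of the SNORD1 snoRNAs, read 18.5 and 17.1 FPKM in the controls and 15.9 and 16.2 FPKM with ABCE1 guides. It was the one host whose ABCE1 libraries both lay below the controls (log2 change -0.14 ± 0.05, limma adjusted p = 0.0613).

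The scale bears on the smaller changes. When the libraries were each centred on their median gene, the median log2 change of all genes shifted by -0.14 with ABCE1 guides. This turned the calls over all genes from 4715 higher and 2563 lower to 3271 higher (26%) and 3915 lower (31.1%), while 7 hosts were called higher and 1 lower. Centring took SNHG5 to 0.22 (limma adjusted p = 0.032), SNHG6 to 0.25 (0.00748) and SNHG16 to -0.28, where it was called lower (0.00455). SNHG16 was also called lower with quantile normalization (-0.22, limma adjusted p = 0.0118) and without control replicate 2 (-0.19, limma adjusted p = 0.0484), but without control replicate 1 its change was -0.08 (limma adjusted p = 0.323). It was called in 3 of the 14 alternative settings. SNHG15 was called higher without YAE1 replicate 1 or without YAE1 replicate 2 (limma adjusted p = 0.0358 and 0.035), which lowers only the estimate of the spread, but its change was 0.13 without ABCE1 replicate 2 (limma adjusted p = 0.388) and 0.06 after centring (limma adjusted p = 0.624).

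**Figure D2:**
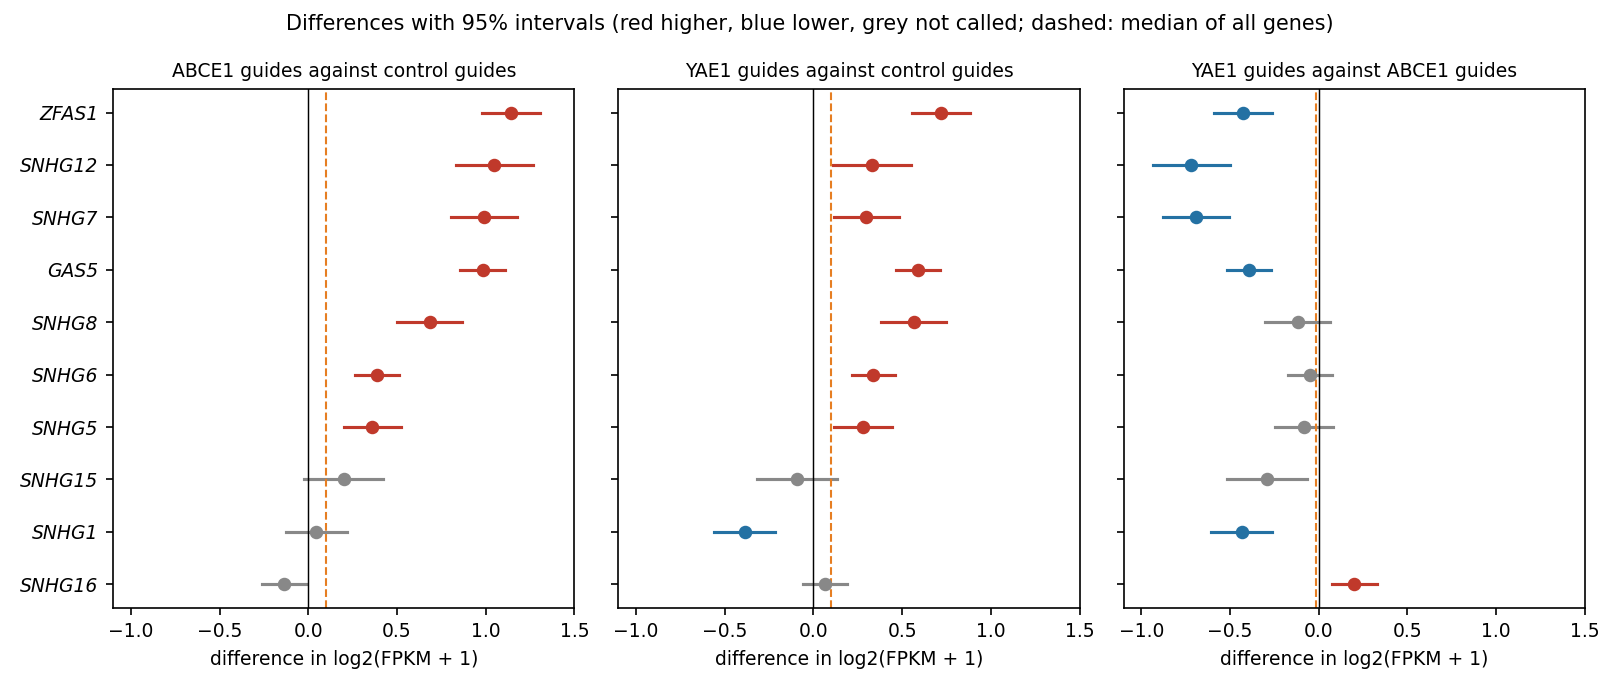
Differences in log2(FPKM + 1) (x axis) of the 10 hosts (y axis) for ABCE1 against control, YAE1 against control and YAE1 against ABCE1 guides, with 95% intervals from limma. Points are red where called higher, blue where called lower and grey where not called, and the dashed line is the median of all 12578 tested genes. ZFAS1, SNHG12, SNHG7 and GAS5 stand near 1 with ABCE1 guides, and SNHG12 and SNHG7 near 0.3 with YAE1 guides.

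The second comparison turned to YAE1 guides, with the same 2 control libraries. With YAE1 guides 7 hosts rose, namely ZFAS1, GAS5, SNHG8, SNHG6, SNHG12, SNHG7 and SNHG5, and SNHG1 fell (limma, adjusted p under 0.05). Of all tested genes 34.2% were called higher and 17.6% lower. The median log2 change was 0.31 over the hosts and 0.10 over all genes, and 2 hosts were called with a rise of 1.5-fold or more in the fit, against 9.29% of all genes. Both YAE1 libraries lay above both controls in 8 hosts (49.8% of all genes) and below them in 1 (27.9% of all genes).

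ZFAS1 again rose most among the hosts, to 40.0 and 34.7 FPKM with YAE1 guides from 22.3 and 22.2 FPKM in the controls (1.68-fold, log2 change 0.72 ± 0.07, SE, limma adjusted p = 0.000332). GAS5 reached 120 and 112 FPKM from 76.4 and 76.6 FPKM (1.51-fold, log2 change 0.59 ± 0.05, limma adjusted p = 0.000251). SNHG8 reached 16.0 and 14.9 FPKM from 9.37 and 10.9 FPKM (1.52-fold, log2 change 0.57 ± 0.08, limma adjusted p = 0.00131). In each of these 3 genes the YAE1 libraries stood clear of the controls, although the 2 YAE1 values of ZFAS1 were themselves further apart than its controls. SNHG6, the other host of high FPKM besides GAS5 and SNHG1, reached 108 and 103 FPKM from 82.4 and 83.9 FPKM (1.27-fold, log2 change 0.34 ± 0.05, limma adjusted p = 0.00201).

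SNHG12, SNHG7 and SNHG5 rose by smaller amounts than ZFAS1, GAS5 and SNHG8, and their calls depended more on single libraries. SNHG12 read 19.3 and 15.6 FPKM with YAE1 guides (1.28-fold, log2 change 0.33 ± 0.09, SE, limma adjusted p = 0.0219), SNHG7 15.4 and 13.0 FPKM (1.25-fold, log2 change 0.30 ± 0.08, limma adjusted p = 0.0175) and SNHG5 17.1 and 15.6 FPKM (1.23-fold, log2 change 0.28 ± 0.07, limma adjusted p = 0.0136). All 3 lay above their controls in both libraries, by less in the second YAE1 library than in the first. Without YAE1 replicate 1 the log2 change of SNHG12 was 0.18 (limma adjusted p = 0.0276), that of SNHG7 0.19 (0.0412) and that of SNHG5 0.22 (0.0576). The call for SNHG12 was lost without control replicate 1 (0.32, limma adjusted p = 0.0924) or control replicate 2 (0.34, limma adjusted p = 0.0744), that for SNHG7 without control replicate 2 (0.26, limma adjusted p = 0.0912) and that for SNHG5 without control replicate 1 (0.24, limma adjusted p = 0.0813). After centring on the median gene, which moved the calls over all genes from 4303 higher and 2214 lower to 3014 higher (24%) and 3124 lower (24.8%), none of the 3 was called (0.23, 0.20 and 0.18, limma adjusted p = 0.0845, 0.0828 and 0.0707) and 4 hosts were called higher.

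SNHG1 was the one host that fell. It read 59.9 and 55.9 FPKM in the controls and 46.9 and 41.2 FPKM with YAE1 guides, with no overlap, and the mean fell by 23.9% (log2 change -0.39 ± 0.07, SE, limma adjusted p = 0.0044). Of the tested genes 10.0% had a lower value. The call was made under all 14 alternative settings of the analysis, with log2 changes from -0.49 to -0.30.

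SNHG15 and SNHG16 did not pass the test with YAE1 guides. SNHG15 read 8.31 and 6.77 FPKM, on both sides of its controls (log2 change -0.09, 95% interval -0.32 to 0.13, limma adjusted p = 0.428). SNHG16 read 18.5 and 18.8 FPKM against 18.5 and 17.1 FPKM in the controls (log2 change 0.06, 95% interval -0.06 to 0.19, limma adjusted p = 0.338).

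**Figure D3:**
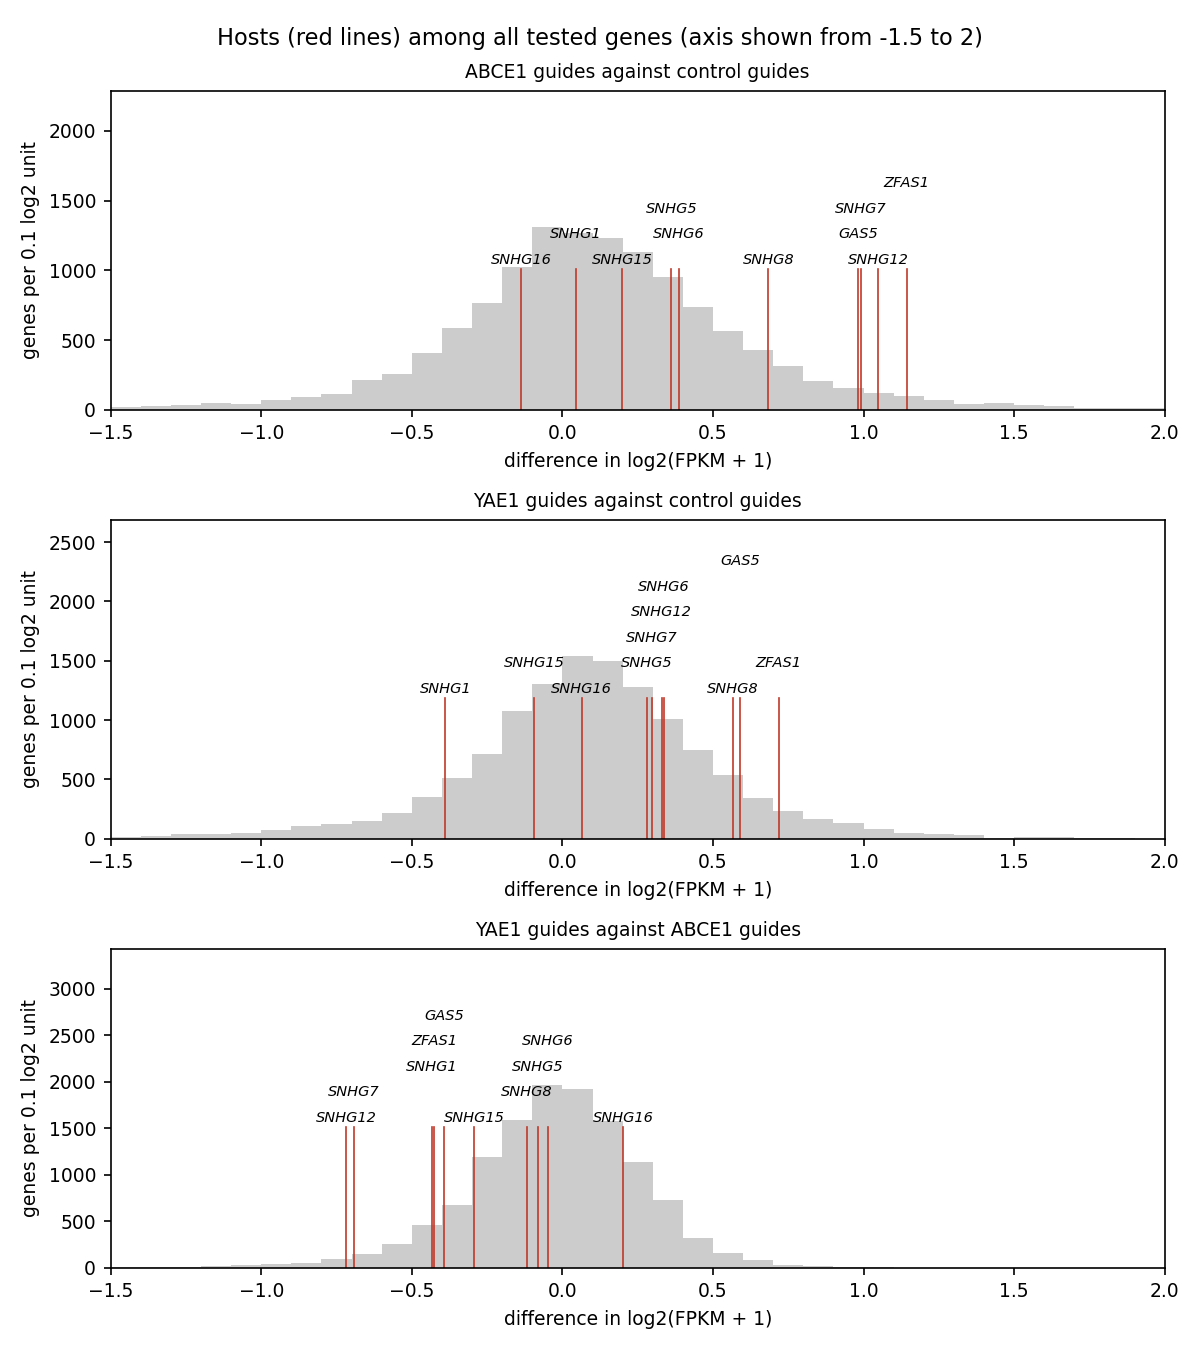
Distribution of the difference in log2(FPKM + 1) over all 12578 tested genes (grey bars, genes per bin of 0.1) for the 3 comparisons, with a red line for each host. The hosts run from -0.14 (SNHG16) to 1.14 (ZFAS1) with ABCE1 guides, from -0.39 (SNHG1) to 0.72 (ZFAS1) with YAE1 guides, and from -0.72 (SNHG12) to 0.20 (SNHG16) between the targeted groups, and the axis leaves out the genes beyond -1.5 and 2.

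The third comparison set YAE1 guides directly against ABCE1 guides. The control values enter only the shared estimate of the spread. Of the hosts 5 were lower with YAE1 guides, namely SNHG12, SNHG7, SNHG1, ZFAS1 and GAS5, and SNHG16 was higher (limma, adjusted p under 0.05), where 18.7% of all tested genes were lower and 15.3% higher. The median log2 difference was -0.34 over the hosts and -0.01 over all genes. Both YAE1 libraries lay below both ABCE1 libraries in 7 hosts (36.8% of all genes) and above them in 1 (33.4% of all genes). After centring, 5 hosts were lower and 1 higher, where the calls over all genes turned from 1928 higher and 2351 lower to 2395 higher (19%) and 1882 lower (15%). In 7 hosts the YAE1 mean lay between those of the control and ABCE1 groups, but SNHG5, SNHG6 and SNHG8 among them were not called here. The share of all tested genes with such an order of means was not worked out. All calls of lower hosts held when each library was left out in turn. For SNHG16 the call did not hold without ABCE1 replicate 1 (limma adjusted p = 0.125), ABCE1 replicate 2 (0.0948), YAE1 replicate 1 (0.0638) or YAE1 replicate 2 (0.0702), with log2 differences from 0.19 to 0.21.

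SNHG12 and SNHG7 differed most. SNHG12 was 29.4 and 28.8 FPKM with ABCE1 guides and 19.3 and 15.6 FPKM with YAE1 guides (log2 difference -0.72 ± 0.09, SE, limma adjusted p = 0.00359), and only 2.10% of tested genes had a lower value. SNHG7 was 23.4 and 23.6 FPKM with ABCE1 guides and 15.4 and 13.0 FPKM with YAE1 guides (log2 difference -0.69 ± 0.08, limma adjusted p = 0.00277). Both genes thus lay closer to their control level than to their ABCE1 level with YAE1 guides.

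The other differences were smaller. For ZFAS1 the log2 difference was -0.43 ± 0.07 (SE, limma adjusted p = 0.00667), for GAS5 -0.39 ± 0.05 (limma adjusted p = 0.00406) and for SNHG1 -0.43 ± 0.07 (limma adjusted p = 0.00705). The difference in ZFAS1 and GAS5 was between 2 raised groups, whereas in SNHG1 the ABCE1 group overlapped the controls. SNHG16 was 15.9 and 16.2 FPKM with ABCE1 guides and 18.5 and 18.8 FPKM with YAE1 guides (log2 difference 0.20 ± 0.05, limma adjusted p = 0.0279).

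SNHG8, SNHG6, SNHG5 and SNHG15 did not pass this test. For SNHG8 the log2 difference of -0.12 had a 95% interval from -0.30 to 0.07 (limma adjusted p = 0.274), for SNHG6 it was -0.05 (-0.17 to 0.07, limma adjusted p = 0.486) and for SNHG5 -0.08 (-0.24 to 0.08, limma adjusted p = 0.384). These intervals leave out differences as large as those of SNHG12 and SNHG7. SNHG15 was lower in both YAE1 libraries than in both ABCE1 libraries, with a difference of -0.29 (-0.52 to -0.07, limma adjusted p = 0.0523), and the value rested on single libraries. Leaving out YAE1 replicate 1 gave -0.42 (limma adjusted p = 0.019), while leaving out YAE1 replicate 2 gave -0.16 (limma adjusted p = 0.154) and leaving out ABCE1 replicate 2 gave -0.23 (limma adjusted p = 0.22).

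Some of the hosts resembled each other closely in their values over the 6 libraries and others did not. The likeness of 2 genes was taken as the root mean square difference of their log2(FPKM + 1) values after each gene's own mean was removed. It is given as a description, since all genes share these libraries. SNHG7 and SNHG12 were 0.04 apart, and each was the nearest of all 12577 other tested genes to the other. GAS5 and ZFAS1 were 0.08 apart, ZFAS1 ranking 48 in likeness to GAS5 and GAS5 ranking 17 in likeness to ZFAS1. SNHG5 and SNHG6 were 0.03 apart, with ranks of 10 and 17. SNHG1 and SNHG15 were each other's nearest host at 0.12, with ranks of 241 and 916. The host nearest to SNHG8 was SNHG6, at 0.14 and rank 1110, and the one nearest to SNHG16 was SNHG5, at 0.22 and rank 7026. The 2 tested genes outside the set that lay closest to the mean profile of the hosts were ENSG00000006695 (0.02) and ENSG00000144597 (0.03), whose symbols the table does not give. The host nearest to that mean, SNHG5, ranked 820 among the 12578 genes.

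**Figure D4:**
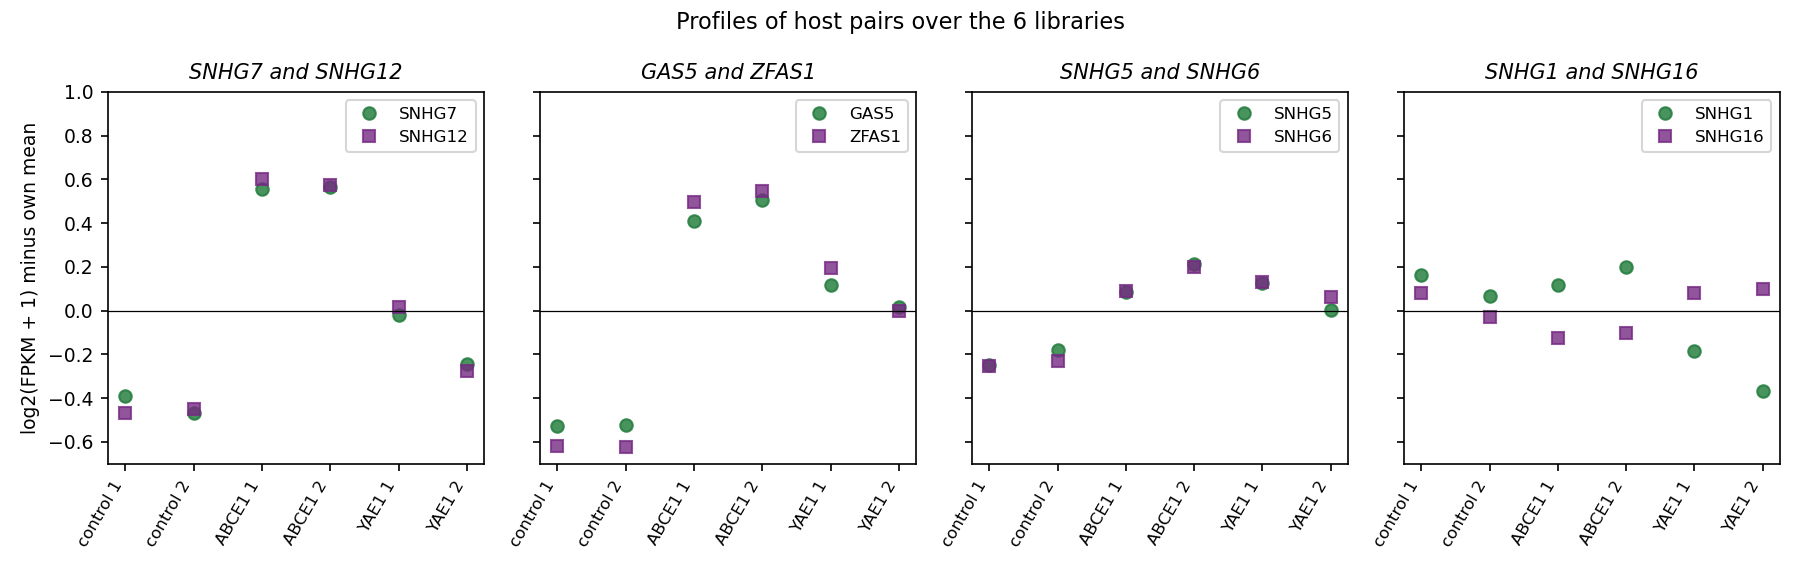
log2(FPKM + 1) minus the gene's own mean over the libraries (y axis) in each of the 6 libraries (x axis) for 4 pairs of hosts, 1 symbol per gene. SNHG7 and SNHG12 nearly coincide, with YAE1 libraries below their mean or close to it, GAS5 and ZFAS1 have YAE1 libraries close to or above it, and SNHG1 and SNHG16 separate in opposite ways.

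The kinds of snoRNA carried did not divide the hosts by direction. With ABCE1 guides 4 of 6 C/D hosts and 2 of 3 H/ACA hosts rose, as did SNHG12, where 37.5% of all tested genes were called higher. With YAE1 guides the counts were the same (34.2% of all genes). The 1 host that fell, SNHG1, carries C/D snoRNAs (17.6% of all genes fell). Between YAE1 and ABCE1 guides 3 C/D hosts, 1 H/ACA host and SNHG12 were lower (18.7% of all genes). In that comparison 1 C/D host was higher (15.3%). Classes of 6, 3 and 1 hosts are too small to compare.

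The 2 YAE1 libraries differed from each other across the hosts. Replicate 1 was above replicate 2 in 9 of 10 hosts, with a median log2 difference of 0.15, while over all tested genes the median was 0.01 and 52.1% were higher in replicate 1. The largest gaps were in SNHG12 (19.3 against 15.6 FPKM, 1.24-fold) and SNHG15 (8.31 against 6.77 FPKM, 1.23-fold). The smallest was in SNHG16, at 0.988-fold. In the ABCE1 group replicate 1 was above replicate 2 in 2 hosts, against 48.9% of all tested genes. The median log2 difference there was -0.07 over the hosts and -0.003 over all genes. In the control group replicate 1 was above in 5 hosts (49.4% of all genes), with SNHG8 furthest apart (9.37 against 10.9 FPKM). Over all genes the replicates differed most with YAE1 guides, by the smallest fragment numbers that fit. The chi-square per gene was 5.55 there, against 2.47 in the controls and 2.81 with ABCE1 guides. As the fit pooled the spread of the groups, SEs, intervals and p-values of hosts such as SNHG12 may be too small with YAE1 guides. The part of the replicate gaps in the YAE1 results was not tested beyond leaving out each library.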

How the data were processed

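RNA-seq of 6 A375 libraries, 2 per group, was analysed. The authors deposited 1 table of FPKM values per gene and library. Per the submitters' processing notes the build was GRCh37. No aligner, counter, strand setting or annotation is given in the sources used here. Reads of ZFAS1 and ZNFX1, which overlap on opposite strands, may not have been separated, and reads from intronic snoRNAs may have entered host rows. Gene symbols came with the list of members. The reference at hand was for mouse, and 0 identifiers matched it, so no sequence or position is given and the other gene lists were left out.

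Fragment numbers were worked out from the steps of the FPKM values (multiples of 0.5 within 2e-05 steps, 38266 of 38269 genes above 0, summing to at least 99.4% of the totals). The smallest numbers that fit were taken, so a gene's true numbers can be a constant whole multiple of them, which leaves fold changes as they are. Intervals of counting cover counting error only.

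Genes whose 6 values averaged 1 FPKM or more were tested on log2(FPKM + 1), which understates changes of low genes, with limma 3.58.1 in R 4.3.3 (all libraries in 1 fit, 3 residual degrees of freedom, eBayes with trend, two-sided, Benjamini-Hochberg over 12578 genes, threshold 0.05). An exact permutation test of 2 against 2 libraries cannot go below p = 0.333 and was not used. The steps were tested on simulated data in which all groups scattered alike, so the wider scatter of the YAE1 libraries was not covered. The members and lists were chosen with earlier results of these data known. All members were named, with the 2 genes nearest their mean profile. The 14 alternatives covered the pseudocount, filters, scaling, voom, the libraries fitted, each library left out and a replicate block.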

Additional observations from a re-analysis of the deposited data

Results flagged for a closer look

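For 6 hosts the change from control differed between the 2 targeted genes, as tested by YAE1 against ABCE1 guides in limma. In that test 18.7% of all tested genes were called lower and 15.3% higher. The difference (YAE1 minus ABCE1, log2) was -0.72 for SNHG12, -0.69 for SNHG7, -0.43 for SNHG1, -0.43 for ZFAS1, -0.39 for GAS5 and 0.20 for SNHG16. GAS5, ZFAS1, SNHG7 and SNHG12 were above control with both kinds of guide and further above it with ABCE1 guides. SNHG1 was below control with YAE1 guides and overlapped it with ABCE1 guides. SNHG16 was not called against control with either, and its call between the targeted groups depended on every ABCE1 and YAE1 library. Groups of 2 libraries were too small to look for single outlying libraries.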

How the results depend on the processing

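The 14 alternatives gave 140 values for the 10 hosts in each comparison. Direction and call were the same in 132 with ABCE1 guides, 125 with YAE1 guides and 130 between the 2. Direction could not change in many of these values. The filters, fitting only the libraries compared, the replicate block and leaving out a library of the group not compared leave the log2 change as it is. The number of hosts called with YAE1 guides was 5, against 8, after centring on the median gene (48.8% of all genes called, against 51.8%) and also with no filter (13.3% of all genes called), which tests more genes. Without a filter SNHG5, SNHG7 and SNHG12 lost their calls, and with quantile normalization SNHG7 and SNHG12. Signs turned only in hosts not called in the comparison: SNHG1 with ABCE1 guides after centring (-0.094) and over the libraries left out (-0.0036 to 0.093), SNHG16 with YAE1 guides after centring (-0.033), SNHG15 with YAE1 guides over the libraries left out (-0.23 to 0.036), and SNHG6 between YAE1 and ABCE1 guides over the libraries left out (-0.11 to 0.0062). The cause was not tested.

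Over all genes, 4761 were called with ABCE1 guides at a mean of at least 5 FPKM, against 7278. Fewer genes were tested there, and the share called was larger (67.6% against 57.9%). Between YAE1 and ABCE1 guides 2091 were called with no filter, against 4279, and 1811 to 3721 when a library was left out. The replicate numbers in the titles did not pair the libraries (correlations of deviations -0.05 to -0.01). With the replicate block 7 hosts were called with ABCE1 guides (56.1% of all genes), 8 with YAE1 guides (49.8%) and 6 between them (30%), the same numbers of hosts as without it.

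Leaving out a library leaves 1 in its group, assumed to vary like the others.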
